A study of Mus musculus with 12 samples.

Results

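Bulk RNA from whole bone marrow cells of B6 mice was read here for 6 genes of the Ly6 family, Ly6a, Ly6c1, Ly6c2, Ly6d, Ly6e and Ly6g, out of 21853 genes in the deposited table. All 6 lie on mouse chromosome 15. They were taken by name from the family members listed in that table. The names were chosen by FPKM values of these 12 libraries that earlier results had shown, so their levels are given as a description, and the tests below are not independent support for the choice. No level of expression separates them from the rest of the family. Ly6c1, with a mean of 1.41 FPKM over the libraries, is among the 6, while the neighbouring genes Ly6i and Lynx1, with control means of 4.31 and 4.51 FPKM, are not. FPKM divides fragment counts by transcript length and library depth, so levels of different genes can be compared per length.

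There were 4 groups of 3 libraries, all from marrow taken at day 14. Control mice were not irradiated. TBI mice had total body irradiation of 5 Gy with gamma rays at 0.66 Gy/min and were gavaged with 100 µL of vehicle, olive oil. TBI+DEIX mice had the same irradiation and DEIX by mouth, and DEIX mice had DEIX without irradiation, in both cases at 25 mg per kg once a day for 14 days. DEIX stands for deinoxanthin, a bacterial carotenoid, as the series title names it. For control mice the labels state neither a vehicle nor gavage, so dosing and the differences from control cannot be told apart, and the labels do not say whether each library came from its own animal, so the p-values measure only the spread between these libraries. Ages and sexes are not given in the labels used here.

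Ly6 genes code for small proteins of the LY6/uPAR domain family, most of which are held on the outer face of the cell membrane by a glycosylphosphatidylinositol (GPI) anchor. Several are the antigens by which mouse marrow cells are sorted. Ly6a is Sca-1, used to isolate stem cells. Ly6c2 and Ly6c1 code for the Ly-6C antigens, high on classical monocytes. Ly6g codes for the Ly-6G antigen of neutrophils. Ly6d marks lymphoid progenitors turning to the B lineage, and Ly6e, also called Sca-2, is broadly expressed. Ly6a and Ly6e are known as genes induced by interferon.

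In the GRCm38 annotation (mm10) the genes run, in order, from Ly6d (ENSMUSG00000034634.7, chr15:74762056-74763620, minus strand) through Ly6e (ENSMUSG00000022587.14, chr15:74955051-74959905, plus), Ly6a (ENSMUSG00000075602.10, chr15:74994877-74998031, minus), Ly6c1 (ENSMUSG00000079018.10, chr15:75044018-75048830, minus) and Ly6c2 (ENSMUSG00000022584.14, chr15:75108158-75111970, minus) to Ly6g (ENSMUSG00000022582.4, chr15:75155240-75159126, plus). All are protein-coding.

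Ly6c1 and Ly6c2 are shown first as sequence, because how reads fall between them sets what their values mean. The coding sequences of their principal transcripts in GENCODE vM21 are both 396 bases long and differ at 9 bases, an identity of 97.7%. The principal transcripts were taken after an alignment of the longest coding sequences, 444 and 396 bases, had been seen to give 80.9% with 62 gap columns. The stretch of coding bases 1 to 90 holds 6 of the 9, shown in capitals.
Ly6c1: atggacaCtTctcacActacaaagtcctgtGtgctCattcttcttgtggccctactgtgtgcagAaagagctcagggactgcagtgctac
Ly6c2: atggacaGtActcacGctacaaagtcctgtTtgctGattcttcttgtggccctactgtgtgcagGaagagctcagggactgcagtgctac
Of all windows of 50 coding bases of Ly6c2, 46.7% were found letter for letter in a Ly6c1 transcript. For windows of 100 and 150 bases the shares were 30.0% and 15.8%. Against Ly6c2, the coding identity of Ly6a was 81.7% and that of Ly6g 78.3%, and 3 of 356 windows of 50 bases of Ly6a matched Ly6c2. Ly6d and Ly6e were at 51.4% and 51.3%, and none of their windows of 50 bases was found in any of the other 5 genes. The identities and the windows were taken from coding bases only, while the principal transcripts of Ly6c1 and Ly6c2 are 844 and 822 bases long. Values of Ly6c1 and Ly6c2 are therefore uncertain as to the split of reads from the shared coding stretches.

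The 160 bases before the RefSeq start site are shown for the 3 of the 6 genes that matched the promoter table (RefSeq, GRCm38.p6), each on its own strand, because these neighbours lie next to each other and differ widely in level.
Ly6c1 (chr15:75048838-75048997, minus): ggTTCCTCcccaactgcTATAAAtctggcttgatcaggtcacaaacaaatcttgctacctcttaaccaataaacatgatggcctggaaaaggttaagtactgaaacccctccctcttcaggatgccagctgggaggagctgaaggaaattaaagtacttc
Ly6c2 (chr15:75111972-75112131, minus): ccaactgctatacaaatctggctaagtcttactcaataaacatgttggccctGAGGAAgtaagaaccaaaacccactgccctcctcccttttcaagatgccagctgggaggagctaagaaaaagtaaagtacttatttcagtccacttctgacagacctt
Ly6g (chr15:75155101-75155260, plus): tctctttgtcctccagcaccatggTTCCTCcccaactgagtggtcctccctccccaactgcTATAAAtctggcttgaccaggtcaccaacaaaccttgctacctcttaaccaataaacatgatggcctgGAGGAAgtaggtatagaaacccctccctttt
Capitals mark TATAAA and GAGGAA on either strand, the latter being the core of sites of the myeloid factor Spi1. TATAAA, the letters of a TATA box, lay further from these starts than a TATA box usually does, at bases -143 to -138 in Ly6c1 and -99 to -94 in Ly6g. In the 250 bases before the start, on both strands, TATAAA was found in Ly6c1 and Ly6g, and GAGGAA in Ly6c1, Ly6c2 and Ly6g. CCAAT was found in Ly6c1 and Ly6g and overlapped none of these. The interferon-stimulated response element core, the interferon motif TTCNNNGAA and the E-box CACCTG were found in none of the 3 windows. Of 32851 RefSeq promoters, TATAAA was in 12.4%, GAGGAA in 23.3%, CCAAT in 33.8%, the response element core in 2.98%, TTCNNNGAA in 7.02% and CACCTG in 17.2% of windows of the same length. The identity of these windows was 57.7% between Ly6c1 and Ly6c2, 58.5% between Ly6c1 and Ly6g and 42.5% between Ly6c2 and Ly6g. Ly6a, Ly6d and Ly6e did not match the promoter table.

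TBI+DEIX replicate 1 stood apart from the other libraries. Across all genes, log2(FPKM + 1) correlated with a median Pearson r of 0.994 between libraries of a group (12 pairs), of 0.988 between libraries of different groups (54 pairs) and of 0.977 between TBI+DEIX replicate 1 and the other 11. That library was also the lowest of the 12 for the summed erythroid markers (152 FPKM, against 385 to 7989 in the others) and the lymphoid progenitor and B lineage markers (8.27 FPKM, against 30.6 to 407). It held the lowest value of 5 of the 6 Ly6 genes, all but Ly6c1. Many tests turned on it, and for the 6 genes each call that changed without it is given. Other libraries differed from their group in single lists: TBI replicate 1 held 30.6 FPKM of B lineage markers, against 317 and 407 in the other TBI libraries, and DEIX replicate 2 held 7935 FPKM of erythroid markers, against 1533 and 1287. Markers of neutrophils, monocytes, erythroid cells and B cells were all present in whole marrow. Of 6 erythroid markers 5 were called lower in TBI+DEIX against control (2 without TBI+DEIX replicate 1), and of 6 T cell markers 2. Beside them 30.0% of all genes were called, 13.1% lower, and 38.5% were called without that library. In TBI against control 1 of 6 T cell markers was called lower (3.99% of all genes were called). Without TBI+DEIX replicate 1 all 6 were (12.2%), and 4 were called lower in DEIX against control (21.9%). In that fit 5 were called higher in TBI+DEIX against TBI (25.8%) and 5 for the interaction (3.01%). Their part in the levels of the Ly6 genes was not tested. The endothelial markers summed to 6.95 to 16.9 FPKM.

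Together the 6 genes ranged from among the highest values of the table down to a mean of 1.41 FPKM. Ly6c2 had the highest level, with a mean over the 12 libraries of 1460 FPKM and rank 35 of 21853 genes, followed by Ly6e (932 FPKM, rank 72), Ly6g (433, rank 189), Ly6d (58.0, rank 1478), Ly6a (42.3, rank 2106) and Ly6c1 (1.41, rank 10307). None of the 72 values was 0, and all 6 genes passed the filter for testing.

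**Figure D1:**
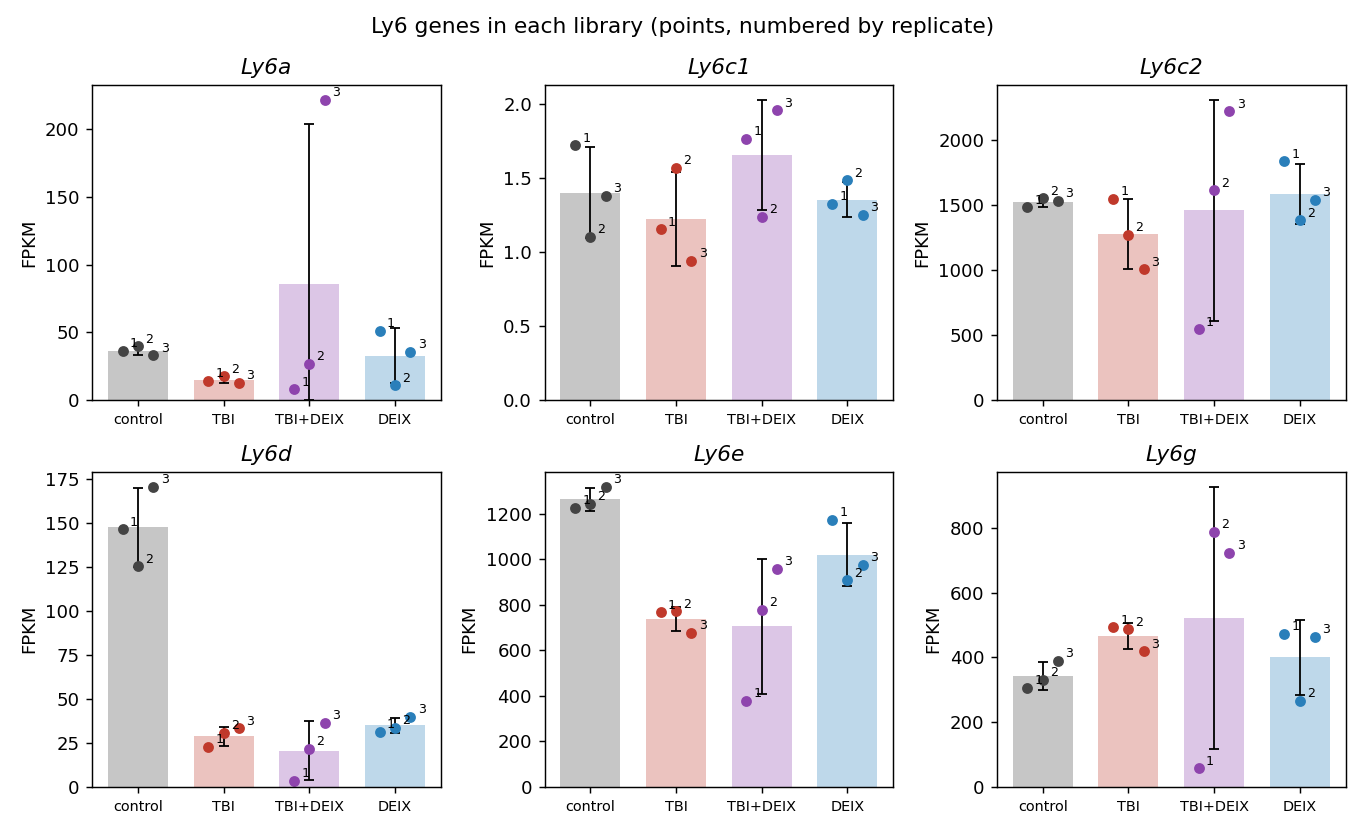
FPKM of the 6 Ly6 genes by group, 1 panel per gene with its own linear axis from 0. Points are libraries numbered by replicate, bars are means and whiskers are SD (n = 3), ended at 0 where the SD exceeds the mean (Ly6a in TBI+DEIX). Ly6d is at 126 to 171 FPKM in the control libraries and at no more than 39.9 in any other.

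Ly6d, the lymphoid progenitor antigen, showed the clearest difference. The control libraries held 146, 126 and 171 FPKM (replicates 1 to 3), the TBI libraries 22.9, 30.6 and 33.3, the TBI+DEIX libraries 3.29, 21.8 and 36.6, and the DEIX libraries 31.2, 33.8 and 39.9. All 9 libraries from irradiated or DEIX-treated mice lay below all 3 control libraries, which held for 6.79% of the 10994 genes tested. Group means were 148 ± 22.6 in control, 34.9 ± 4.46 in DEIX, 28.9 ± 5.41 in TBI and 20.6 ± 16.7 FPKM in TBI+DEIX (SD, n = 3), and the last 3 groups overlapped one another. In marrow as a whole, fewer cells of a type and less RNA per cell cannot be told apart.

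In the test over all genes, Ly6d fell in TBI+DEIX against control, by 3.26 on the log2 scale (SE 0.59, limma adjusted p 0.0025). It fell by 2.33 without TBI+DEIX replicate 1 (SE 0.22, adjusted p 0.000132), a 5.06-fold lower mean in place of 7.18-fold. Against control, the log2 change was -2.32 in TBI (SE 0.59, adjusted p 0.0538) and -2.04 in DEIX (SE 0.59, adjusted p 0.0605), a 5.10-fold and a 4.22-fold lower mean, and neither passed the threshold of 0.05. Leaving out a TBI+DEIX library, which also enters the shared estimate of the spread, moved these p-values. Without TBI+DEIX replicate 1 the adjusted p was 0.000108 for TBI and 0.000528 for DEIX, at the same log2 changes, and without TBI+DEIX replicate 3 it was 0.0213 and 0.0302. Without any 1 of the other 10 libraries neither passed, with adjusted p of up to 0.204 for TBI (without control replicate 3) and 0.181 for DEIX (without DEIX replicate 1). Fits on the compared groups alone gave 0.000195 and 0.000158. The interaction (TBI+DEIX against TBI, minus DEIX against control) was 1.10 (SE 0.83, adjusted p 0.91), and 2.03 without TBI+DEIX replicate 1 (adjusted p 0.00438).

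Markers of the cells known to carry Ly6d were read beside it. Of the 10 lymphoid progenitor and B lineage markers, all tested, 1 was called lower in TBI against control (Il7r, the interleukin 7 receptor, named after its values were seen), 2 in DEIX against control (Il7r and Rag1) and 7 in TBI+DEIX against control, and none was called higher. Of all genes 3.99%, 7.24% and 30.0% were called in these contrasts, and 13.1% were called lower in the last. The counts called lower were 1, 9 and 5 without TBI+DEIX replicate 1, beside 12.2%, 21.9% and 38.5% of all genes called. With all libraries the median log2 changes of these markers were -1.46, -2.37 and -2.53, beside 0.05, 0.02 and 0.02 over all genes tested. The last of the marker medians was -1.74 without TBI+DEIX replicate 1. The markers summed to 311 to 357 FPKM in control, 30.6 to 407 in TBI, 8.27 to 185 in TBI+DEIX and 40.8 to 70.2 in DEIX. Their part in the level of Ly6d was not tested.

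Within TBI the B lineage markers spread more widely around their control level than Ly6d, with replicate 1 lowest and replicate 3 highest for each. Relative to the control mean, Ly6d was at 15.5%, 20.7% and 22.6% in TBI replicates 1 to 3. Vpreb1 and Igll1, the surrogate light chain genes of early B cells, were at 13.2%, 207% and 239%, and at 17.6%, 203% and 255%. Cd79a, a chain of the B cell receptor, was at 4.67%, 46.2% and 55.9%. Thus TBI replicates 2 and 3 held more surrogate light chain RNA than control, and Ly6d in the same libraries was below 23% of control, a contrast that was not tested. In DEIX the values were closer together, at 21.1%, 22.9% and 27.0% for Ly6d, 2.76%, 8.73% and 9.16% for Vpreb1, and 18.1%, 19.9% and 26.4% for Cd79a.

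Plasmacytoid dendritic cells, a source of interferon, partly arise from Ly6d-bearing progenitors. Of 5 markers, 4 were called lower in TBI against control, 1 in DEIX against control and 5 in TBI+DEIX against control (5, 4 and 5 without TBI+DEIX replicate 1). Of all genes 3.99%, 7.24% and 30.0% were called with all libraries (13.1% lower in the last), and 12.2%, 21.9% and 38.5% without that one. In TBI+DEIX against TBI 2 of the 5 markers were called lower, beside 8.10% of all genes called. Without TBI+DEIX replicate 1 that count was 3, beside 25.8%. The mean of Siglech, a lectin of these cells, was 26.6 ± 1.37 FPKM for control, 16.3 ± 2.36 for DEIX, 8.98 ± 1.33 for TBI and 3.54 ± 2.08 for TBI+DEIX (SD, n = 3), and it fell in TBI against control by 1.48 on the log2 scale (limma adjusted p 0.00725). The markers summed to 73.6 to 77.7 FPKM in control, 25.5 to 37.0 in TBI, 9.82 to 22.4 in TBI+DEIX and 38.5 to 44.4 in DEIX, and as with Ly6d no library of the last 3 groups reached the control range. Their part in the level of Ly6d was not tested.

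**Figure D2:**
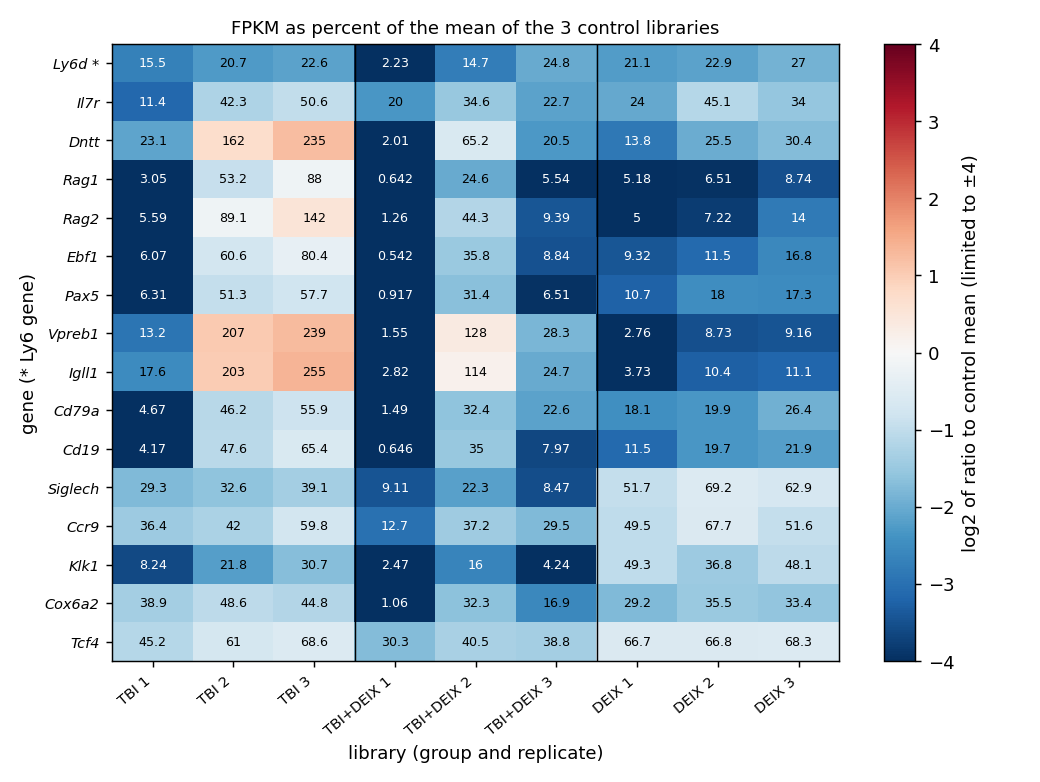
Ly6d (marked *) above the lymphoid progenitor, B lineage and plasmacytoid dendritic cell markers in the 9 libraries outside control. Each cell gives the FPKM as a percent of the mean of the 3 control libraries, and the colour is the log2 of that ratio, limited to ±4. Ly6d is at 15.5% to 27.0% in every library but TBI+DEIX replicates 1 (2.23%) and 2 (14.7%), while Vpreb1 reaches 207% and 239% in TBI replicates 2 and 3.

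Ly6e was also lower outside control, by less. Control replicates 1 to 3 held 1227, 1245 and 1320 FPKM, those of TBI 767, 772 and 678, those of TBI+DEIX 378, 779 and 960, and those of DEIX 1175, 908 and 976. As for Ly6d, no library of the other groups reached the lowest control library. The order of the means was control (1264 ± 49.0), DEIX (1020 ± 139), TBI (739 ± 53.1) and TBI+DEIX (706 ± 298 FPKM; SD, n = 3), and without its replicate 1 TBI+DEIX was at 869 FPKM, above TBI. The DEIX libraries lay above all TBI libraries, while TBI+DEIX overlapped both TBI and DEIX.

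Ly6e fell in TBI+DEIX against control, by 0.94 on the log2 scale (SE 0.29, limma adjusted p 0.0301), a 1.79-fold lower mean. It fell by 0.55 without TBI+DEIX replicate 1 (SE 0.15, adjusted p 0.0141), a 1.45-fold lower mean. The call was lost without control replicate 1, 2 or 3 (adjusted p 0.0691, 0.0791 and 0.0855) and with only those groups in the fit (0.12). In TBI against control the log2 change was -0.78 (SE 0.29, adjusted p 0.18), and it passed without TBI+DEIX replicate 1 (adjusted p 0.00427). In DEIX against control it was -0.32 (SE 0.29, adjusted p 0.538), and in TBI+DEIX against TBI -0.17 (SE 0.29, adjusted p 0.749), which without TBI+DEIX replicate 1 was 0.23 (adjusted p 0.262).

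Ly6a varied widely within TBI+DEIX and DEIX. Control replicates 1 to 3 held 36.5, 39.7 and 33.0 FPKM, those of TBI 14.3, 17.6 and 12.6, those of TBI+DEIX 7.86, 27.0 and 221, and those of DEIX 51.2, 10.98 and 35.5. The TBI libraries lay below all control libraries, a mean of 14.8 ± 2.52 against 36.4 ± 3.33 FPKM (SD, n = 3), 2.45-fold lower. TBI+DEIX held both the lowest and the highest library of the 12 (mean 85.4 ± 118) and DEIX (32.6 ± 20.3) overlapped every other group.

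None of the Ly6a contrasts passed the test. The log2 change was -1.25 in TBI against control (SE 0.91, limma adjusted p 0.509), 1.28 in TBI+DEIX against TBI (SE 0.91, adjusted p 0.395) and 0.03 in TBI+DEIX against control (SE 0.91, adjusted p 0.984), the last of which was -0.12 on the TPM scale and -0.03 after median-ratio scaling. With only the TBI and control libraries in the fit the first of these had an adjusted p of 0.00102. Without TBI+DEIX replicate 1 the change of TBI+DEIX against TBI was 2.33 (adjusted p 0.0436), and without TBI+DEIX replicate 3 it was 0.00 (adjusted p 0.997). In the comparison with control the change was 1.08 without replicate 1 and -1.24 without replicate 3.

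Marker lists that include cells carrying Sca-1 were read beside Ly6a. The stem and progenitor cell markers summed to 63.2 to 65.6 FPKM in control, 30.5 to 32.0 in TBI, 24.3 to 36.7 in TBI+DEIX and 47.1 to 66.1 in DEIX. Plasma cell markers, whose most abundant gene was Jchain, the joining chain of secreted antibodies, summed to 268 to 425 FPKM in control and 309 to 421 in TBI. They reached 237, 529 and 1419 FPKM in TBI+DEIX replicates 1 to 3 and 1073, 268 and 1028 in DEIX replicates 1 to 3. The library with the highest plasma cell sum was thus also the one with the highest Ly6a, and in both groups the lowest library was the same for both. The same held for Ly6c2, and Ly6e and Ly6g had the same lowest libraries, so the match was not particular to Ly6a. The stem and progenitor sum ran the other way. Within these groups it was highest where Ly6a was lowest, in TBI+DEIX replicate 1 (36.7 FPKM) and DEIX replicate 2 (66.1 FPKM). Of these 5 markers none was called in any contrast, where up to 30.0% of all genes were, and without TBI+DEIX replicate 1, 2 were called higher in TBI+DEIX against control, a share near the 38.5% of all genes called. The part of either list in the level of Ly6a was not tested.

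**Figure D3:**
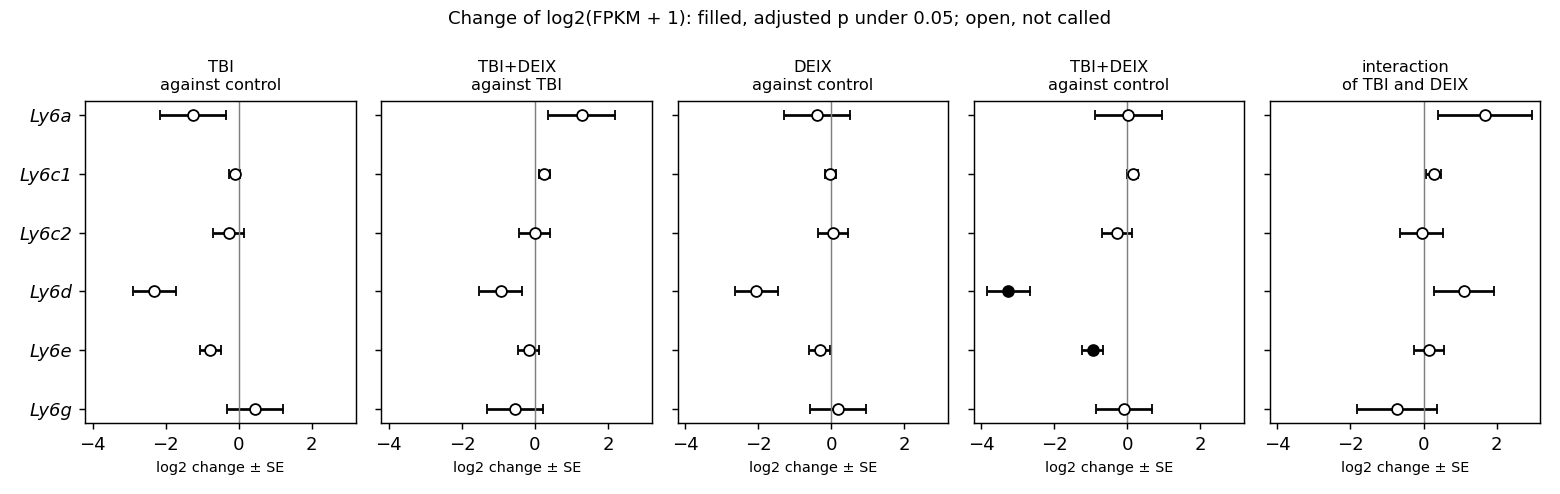
Change of log2(FPKM + 1) with its SE for the 6 genes in 5 contrasts, from the model over all 12 libraries. Filled points passed an adjusted p of 0.05. Only Ly6d and Ly6e in TBI+DEIX against control are filled, and the SE is widest for Ly6a and Ly6g.

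Interferon-stimulated genes were read beside Ly6a and Ly6e. Of 20 tested, 1 was called lower in TBI against control (Ifi44, named after its values were seen). In DEIX against control 3 were called lower and in TBI+DEIX against control 8, and none was called higher in these contrasts. The shares of all genes called were 3.99%, 7.24% and 30.0%, and in the last 13.1% were called lower. The TBI and DEIX counts turned on TBI+DEIX replicate 1. Without it, 19 of 20 were called lower in TBI against control (12.2% of all genes were called). In DEIX against control 19 were (21.9%), and in TBI+DEIX against control 8 (38.5%). In that fit 15 were called higher in TBI+DEIX against TBI (25.8%) and 18 for the interaction (3.01%). None was called in either with all libraries, beside 8.10% and 0.200% of all genes. With all libraries the median log2 changes were -1.83 in TBI, -1.46 in DEIX and -1.62 in TBI+DEIX against control, with all 20 below 0 in each, and the last was -0.60 without TBI+DEIX replicate 1. Summed, the 20 genes were at 1389 to 1686 FPKM in control, 313 to 419 in TBI, 316 to 504 in DEIX, and 126, 674 and 1094 in TBI+DEIX replicates 1 to 3. The mean of Ifi27l2a was 709 ± 73.2 FPKM for control, 83.1 ± 41.3 for TBI, 74.4 ± 19.2 for DEIX and 154 ± 149.8 for TBI+DEIX (SD, n = 3). In TBI+DEIX the replicates stood in the same order for Ly6a, Ly6e and the summed interferon genes, with replicate 1 lowest and replicate 3 highest. Ly6c2 and Ly6d stood in that order too. In DEIX, replicate 2 was lowest for all 3, while replicate 1 was highest for Ly6a and Ly6e and replicate 3 for the interferon sum. The part of interferon signalling in the level of Ly6a or Ly6e was not tested.

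**Figure D4:**
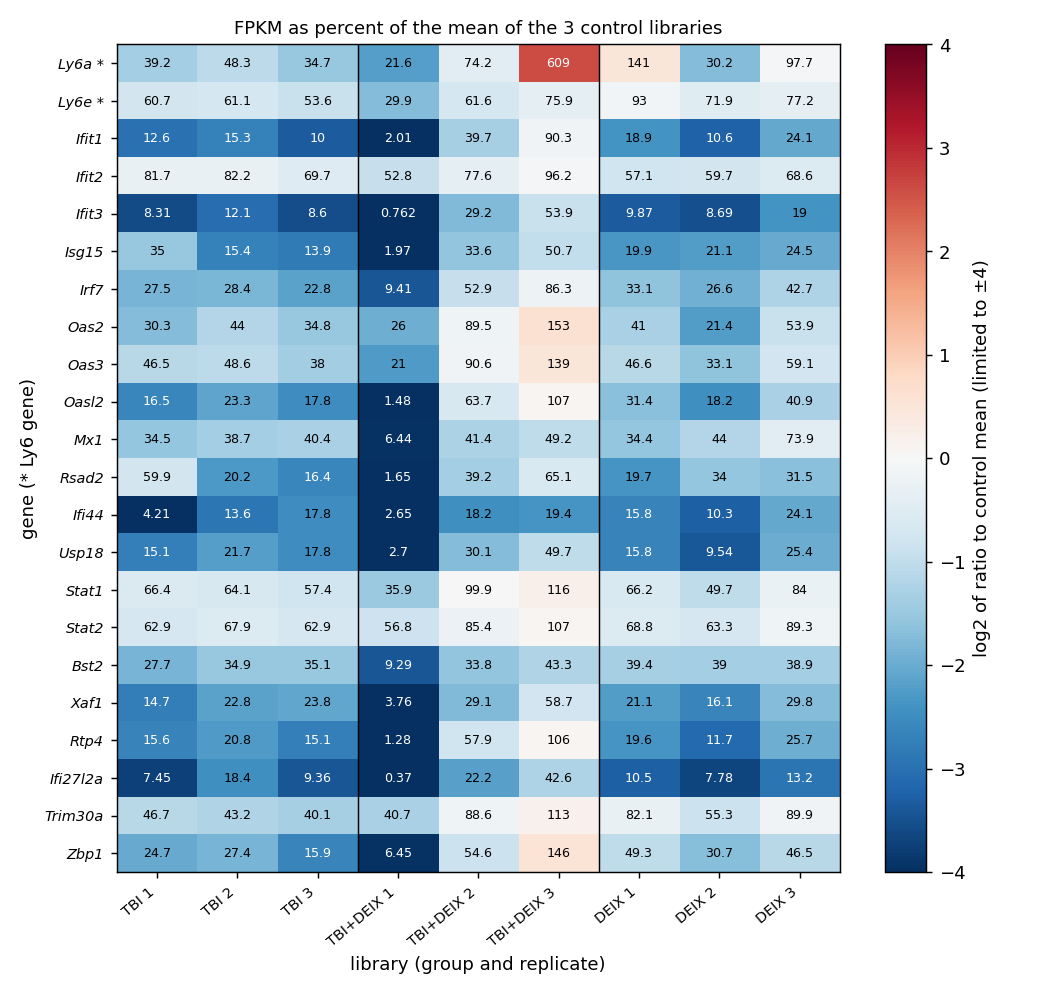
Ly6a and Ly6e (marked *) above 20 interferon-stimulated genes in the 9 libraries outside control. Each cell gives the FPKM as a percent of the mean of the 3 control libraries, and the colour is the log2 of that ratio, limited to ±4. In TBI+DEIX replicate 3, Ly6a is at 609% of control, and Ly6e at 75.9%.

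Ly6c2, the Ly-6C gene of classical monocytes, did not separate the groups. Control replicates 1 to 3 held 1480.2, 1551 and 1529 FPKM, those of TBI 1548, 1269 and 1006, those of TBI+DEIX 545, 1613 and 2218, and those of DEIX 1836, 1380.2 and 1539. The libraries overlapped in all 6 pairs of groups. Log2 changes were -0.28 in TBI against control (SE 0.42, limma adjusted p 0.779), -0.01 in TBI+DEIX against TBI (SE 0.42, adjusted p 0.994) and 0.05 in DEIX against control (SE 0.42, adjusted p 0.957), the last of which was -0.10 on the TPM scale. Without TBI+DEIX replicate 1 the change of TBI+DEIX against TBI was 0.59 (adjusted p 0.0572).

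Other monocyte genes were read beside Ly6c2. Of 10 classical monocyte markers, 3 were called higher in DEIX against control and none lower, beside 7.24% of all genes called, with a median log2 change of 0.66. The 3 were Vcan, a matrix proteoglycan, Fn1, fibronectin, and F13a1, a clotting factor subunit, all named after their values were seen, and 7 were called higher without TBI+DEIX replicate 1, beside 21.9% of all genes. Ccr2, the chemokine receptor of these cells, had means of 135 ± 13.4 FPKM for control, 252 ± 21.3 for DEIX, 141 ± 45.2 for TBI and 107 ± 55.0 for TBI+DEIX (SD, n = 3) and was not called. In TBI against control 1 of the 10 was called higher (Vcan), in TBI+DEIX against TBI 2 were called lower (Fn1 and Klf4), and in TBI+DEIX against control 2 were called higher and 3 lower, beside 3.99%, 8.10% and 30.0% of all genes called. For the interaction 1 was called lower (0.200% of all genes), and 4 without TBI+DEIX replicate 1 (3.01%). Ly6c2 was not called in any of these contrasts.

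Ly6c1 stayed near 1 FPKM throughout. Its 12 values ran from 0.94 to 1.96 FPKM, the group means from 1.22 ± 0.32 (TBI) up to 1.66 ± 0.37 (TBI+DEIX; SD, n = 3), and all pairs of groups overlapped. Relative to Ly6c2 in the same library it was between 0.0712% and 0.124% in 11 libraries and at 0.324% in TBI+DEIX replicate 1, where Ly6c2 was lowest. Its log2 change was 0.26 in TBI+DEIX against TBI (SE 0.15, limma adjusted p 0.295) and 0.28 for the interaction (SE 0.21, adjusted p 0.91), on a scale that understates changes at this level. How the authors' tools divided reads that match both genes is not given in the sources used here, so the level of Ly6c1 may hold reads of Ly6c2. With both genes summed, no contrast was called.

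Ly6g, the neutrophil gene, was higher in TBI than in control in all libraries. Control replicates 1 to 3 held 306, 332 and 390.0 FPKM, those of TBI 493, 487 and 419, those of TBI+DEIX 57.0, 787 and 724, and those of DEIX 472, 266 and 463. The means were 342 ± 43.2 in control, 401 ± 116 in DEIX, 466 ± 40.8 in TBI and 523 ± 405 in TBI+DEIX (SD, n = 3). DEIX overlapped control and TBI, and TBI+DEIX overlapped every group.

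No contrast of Ly6g passed the test with all libraries, with log2 changes of 0.45 in TBI against control (SE 0.77, limma adjusted p 0.807), -0.54 in TBI+DEIX against TBI (SE 0.77, adjusted p 0.699) and -0.09 in TBI+DEIX against control (SE 0.77, adjusted p 0.945). The sign of the last 2 turned without TBI+DEIX replicate 1, and that of the last, which is near 0, also without control replicate 3 (0.01). Without TBI+DEIX replicate 1 Ly6g was higher in TBI+DEIX than in TBI by 0.70 (adjusted p 0.0429) and higher than in control by 1.15 (adjusted p 0.00282).

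The other neutrophil markers shared only part of this pattern. In TBI+DEIX replicate 1, Ly6g was at 16.6% of the control mean, while Lcn2, lipocalin 2, was at 8414 FPKM there against 5669 ± 747 in control. Retnlg, a secreted neutrophil protein, was at 2148 FPKM in that library, against 7863 ± 1448 in control (SD, n = 3). Of 9 neutrophil markers, none was called in TBI against control (3.99% of all genes were called) or in TBI+DEIX against TBI (8.10%). In DEIX against control 1 was called higher (Cd177, named after its values were seen), beside 7.24% of all genes called. In TBI+DEIX against control 4 were called higher, beside 30.0%. Without TBI+DEIX replicate 1, 7 were called higher in TBI+DEIX against TBI (25.8% of all genes were called), 5 in DEIX against control (21.9%) and 8 in TBI+DEIX against control (38.5%). They summed to 21967 to 30587 FPKM in control, 25779 to 32010 in TBI, 26450 to 36895 in DEIX, and 21765, 52986 and 51071 in TBI+DEIX replicates 1 to 3. Their part in the level of Ly6g was not tested. As a ratio within each library, Ly6g over Ly6c2 was 0.206 to 0.255 in control, 0.318 to 0.417 in TBI, 0.105 to 0.488 in TBI+DEIX and 0.193 to 0.301 in DEIX.

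**Figure D5:**
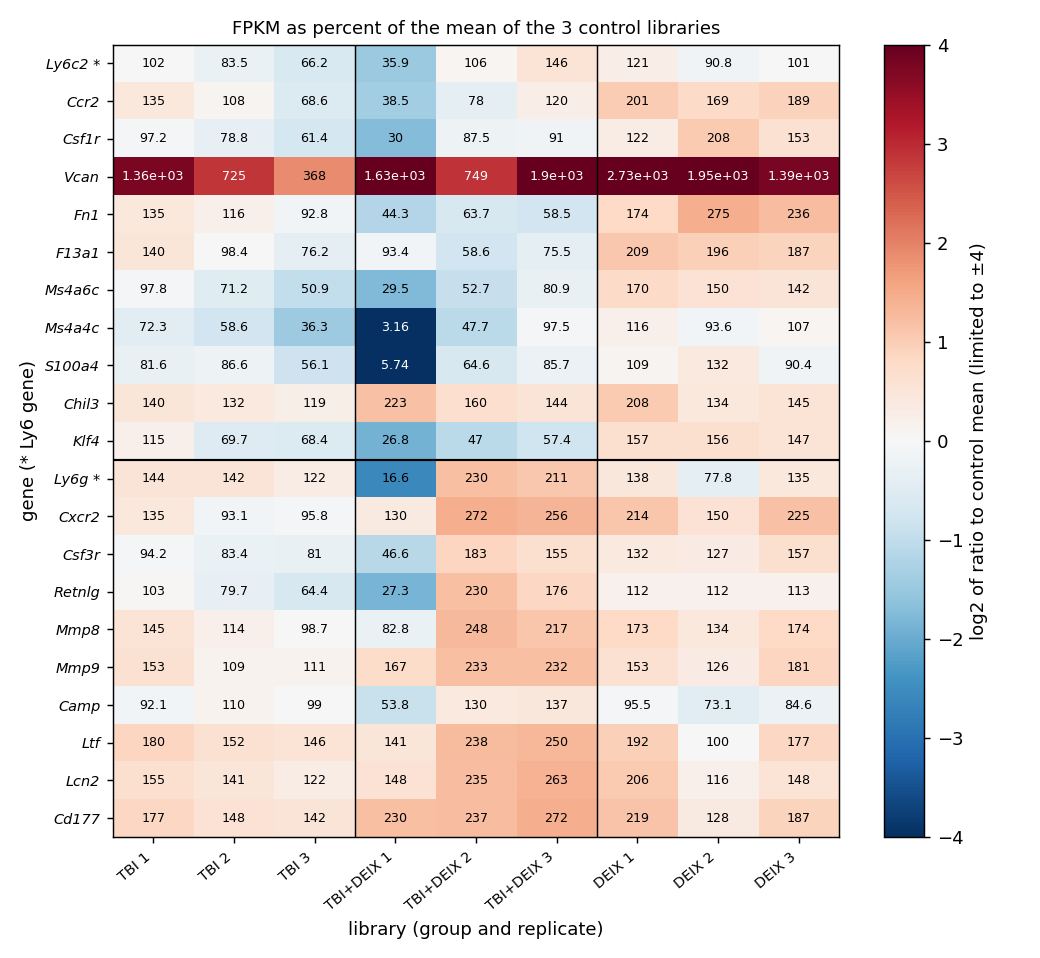
Ly6c2 above 10 classical monocyte markers and Ly6g above 9 neutrophil markers (Ly6 genes marked *) in the 9 libraries outside control. Each cell gives the FPKM as a percent of the mean of the 3 control libraries, and the colour is the log2 of that ratio, limited to ±4. Ly6g is at 230% and 211% in TBI+DEIX replicates 2 and 3 and at 16.6% in replicate 1.

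Counts over the 6 genes were read against all 10994 genes tested. In TBI against control limma called 0 of 6, beside 3.99% of all genes, and 2 (Ly6d and Ly6e) had an unadjusted p under 0.05, beside 18.1%. In TBI+DEIX against TBI 0 of 6 were called, beside 8.10%, and 0 had an unadjusted p under 0.05, beside 27.2%. In DEIX against control 0 of 6 were called, beside 7.24%, and 1 (Ly6d) had an unadjusted p under 0.05, beside 24.7%. In TBI+DEIX against control 2 of 6 were called, beside 30.0%, both of them lower, beside 13.1% called lower, and the same 2 had an unadjusted p under 0.05, beside 41.6%. For the interaction 0 of 6 were called, beside 0.200%, and 0 had an unadjusted p under 0.05, beside 7.50%.

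By separation of the libraries, TBI lay wholly below control for 3 of the 6 (Ly6a, Ly6d and Ly6e), beside 16.3% of genes tested, and wholly above for 1 (Ly6g), beside 22.0%. DEIX lay wholly below control for 2 (Ly6d and Ly6e), beside 17.2%, and above for 0, beside 23.4%. TBI+DEIX lay wholly below control for the same 2, beside 21.1%, and above for 0, beside 23.9%. Against TBI, TBI+DEIX lay wholly below for 0, beside 12.7%, and above for 0, beside 14.5%. The median log2 change of the 6 was -0.53 in TBI against control, -0.09 in TBI+DEIX against TBI, -0.17 in DEIX against control, -0.19 in TBI+DEIX against control and 0.21 for the interaction. Over all genes these medians were 0.05, 0.00, 0.02, 0.02 and -0.02. The contrasts share libraries and are not independent.

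Other genes of the LY6/uPAR family on chromosome 15 were mostly at low values or listed at 0, which in a table without counts need not mean that a gene was off. Of 16 listed, 13 were in the table and 2 passed the filter on low values, Lynx1 and Ly6i. Lynx1, a modulator of nicotinic receptors that lies next to Ly6d, fell in all 3 comparisons with control, to 0.887 ± 0.166 FPKM in TBI (log2 change -1.55, adjusted p 0.000218), 1.02 ± 0.128 in DEIX (-1.45, adjusted p 0.000912) and 0.355 ± 0.209 in TBI+DEIX (-2.03, adjusted p 4.12e-05), from 4.51 ± 0.565 in control (SD, n = 3). Ly6i, between Ly6e and Ly6a, was at 4.50, 4.48 and 3.97 FPKM in control and 0.775, 0.866 and 0.433 in TBI. In TBI+DEIX it was at 0.418, 5.65 and 5.17, and in DEIX at 1.77, 2.90 and 1.73 FPKM. No contrast of Ly6i was called with all libraries. Both Lynx1 and Ly6i were called lower in TBI against control and in DEIX against control without TBI+DEIX replicate 1 (12.2% and 21.9% of all genes were called). In that fit 1 of these 2 genes was called higher in TBI+DEIX against TBI (25.8%) and both were called higher for the interaction (3.01%). The TBI libraries of Ly6i lay below all control libraries, as for Ly6a, Ly6d, Ly6e and Lynx1.

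Genes that build and attach the GPI anchor were read as the shared machinery of the family. All 15 of the list were tested. In TBI against control, TBI+DEIX against TBI and DEIX against control none was called, beside 3.99%, 8.10% and 7.24% of all genes. In TBI+DEIX against control 2 were called higher (Pigs and Pigb) and 2 lower (Pgap1 and Dpm3), beside 30.0% of all genes called. All of these but Dpm3 were named after their values were seen. Without TBI+DEIX replicate 1 the calls were 1 in TBI against control, 1 in TBI+DEIX against TBI, 3 in DEIX against control and 4 in TBI+DEIX against control, beside 12.2%, 25.8%, 21.9% and 38.5% of all genes, shares that the 15 genes did not exceed. Summed, they were at 359 to 427 FPKM in control, 348 to 364 in TBI, 369 to 394 in TBI+DEIX and 338 to 380 in DEIX. Dpm3, a subunit of the enzyme that supplies mannose for the anchor, had means of 130 ± 27.1 FPKM for control, 82.1 ± 9.32 for TBI, 78.3 ± 13.1 for DEIX and 79.4 ± 27.3 for TBI+DEIX (SD, n = 3), with every library of the last 3 groups below all control libraries.

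The genes most like each member were taken by the Pearson r of log2(FPKM + 1) over the 12 libraries, among 8203 genes. These r values describe the libraries, which share groups and the outlying TBI+DEIX replicate 1, and carry no test. Nearest to Ly6d was Bst2, the interferon-induced tetherin of plasmacytoid dendritic cells, at an r of 0.989 (0.979 without TBI+DEIX replicate 1), with 72.1, 85.8 and 99.7 FPKM in control and 7.98 to 37.2 in the other 9 libraries. Nearest to Ly6e was Tgfb1, a growth factor that restrains immune cells, at 0.991 (0.978 without that library). Nearest to Ly6a was Fcgr1, the high-affinity receptor for IgG, at 0.924 (0.909), then Ifitm3, a restriction factor, at 0.898 (0.874). Ly6a and Slpi, a protease inhibitor, had an r of 0.894, which was 0.629 without TBI+DEIX replicates 1 and 3. Slpi was at 3855 FPKM in TBI+DEIX replicate 3, against 157 to 1012 in the others.

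Ly6g and Ywhah, a 14-3-3 protein, had an r of 0.988 (0.967 without TBI+DEIX replicate 1). For Ly6c2 the nearest gene was Sec11c, a subunit of the signal peptidase, at 0.974 (0.912), and for Ly6c1 it was Taf1b at 0.781 (0.74). With TBI+DEIX replicate 1 left out, Ywhah ranked 3, Sec11c 8 and Taf1b 4, while Bst2, Tgfb1 and Fcgr1 ranked 1. Among the 6 genes themselves the highest r was between Ly6d and Ly6e, at 0.908 (0.808 without TBI+DEIX replicate 1). Without that library the highest r was between Ly6a and Ly6c2, at 0.833 (0.765 with it). Between Ly6c2 and Ly6g it was 0.855, and 0.444 without that library, and between Ly6d and Ly6g 0.431, and -0.56 without it.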

How the data were processed

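The deposited table holds FPKM values per gene and library as the authors computed them. STAR 2.6, Cufflinks 2.2.1 and the mm10 build are named in the submitters' processing notes, without roles. The kit was directional, per the labels' protocols, and how reads were counted or shared is not given in the sources used here. All 21853 identifiers matched GENCODE vM21 (GRCm38). Members and gene lists were chosen with earlier results of these data known.

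Values were tested as log2(FPKM + 1), which understates changes of low genes, with limma 3.58.1 in R 4.3.3 (mean-variance trend, 1 model of 4 group means over 12 libraries, 8 residual degrees of freedom). The 10994 genes with FPKM of at least 1 in at least 3 libraries were tested, and Benjamini-Hochberg adjustment covered all of them; a call is an adjusted p under 0.05. The fit was checked on simulated data. Total counts are unknown. Steps of low values put the worth of 1 read, relative to control replicate 1, at 0.895 to 1.89 in the other libraries but TBI+DEIX replicate 1, where 2.36 rested on 13 of 890 genes.

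S100a8, S100a9 and Ngp, listed at 0 in 2, 4 and 5 libraries and above 13842 FPKM elsewhere, were in no marker list. Always named were the 6 genes, then the 3 genes most like each by r (mean FPKM of at least 5) and up to 3 of the most abundant tested genes of each list. The lists covered LY6/uPAR genes, GPI anchoring, interferon-stimulated genes, and monocyte, neutrophil, stem and progenitor, B lineage, T cell, plasmacytoid dendritic, plasma cell, endothelial and erythroid markers. Calls within the stem and progenitor list are not reported here. Alternatives were another pseudocount, filters, scalings, library weights by limma's default method and, added after seeing the data, gene by gene, no trend, only the groups compared, a replicate block, Ly6c1 with Ly6c2 summed, and each library left out. Counts over the marker lists without TBI+DEIX replicate 1 were added after seeing the data.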

Additional observations from a re-analysis of the deposited data

How the results depend on the processing

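The count of the 6 genes called moved with the setting. In TBI against control, where 0 were called, 3 were called with only the compared groups in the fit (12.9% of all genes were called), and 1 (Ly6d) on the TPM scale (2.47%) or after median-ratio scaling (4.10%). In DEIX against control (0), 1 (Ly6d) was called with only the compared groups (18.9%) and on the TPM scale (2.72%). In TBI+DEIX against control (2), 1 was called with no filter on low values (21.0%) and with only the compared groups (20.1%), and Ly6e was lost (adjusted p 0.0557 and 0.12). Leaving out a library gave 0 to 2 in TBI against control (117 to 1335 of all genes), 0 to 2 in TBI+DEIX against TBI (5 to 2828), 0 to 1 in DEIX against control (121 to 2397), 1 to 3 in TBI+DEIX against control (1971 to 4224) and 0 to 1 for the interaction (0 to 330), so counts over all genes moved too. TPM moved the median log2 change of all genes in DEIX against control from 0.02 to -0.13.

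Array weights changed most and hold a choice made after results were seen. limma's default method did not converge, gave control replicate 2 a weight of 97.5 and TBI+DEIX replicate 1 one of 0.0498, and called 6 of the 6 genes in TBI against control, 3 in TBI+DEIX against TBI, 1 in DEIX against control, 3 in TBI+DEIX against control and 1 for the interaction, with 7017, 5532, 5249, 6866 and 1148 genes in all. The gene-by-gene method, added after those counts had been seen, called 4, 2, 1, 3 and 1 (4218, 4488, 4508, 6187 and 532 of all genes), with control replicate 2 still at 11.02. Neither is relied on.

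Replicate numbers did not pair the libraries (3 of 18 same-numbered pairs correlated above 0.1, median r -0.0656). With a replicate block 1 gene, Ly6d, was called in TBI against control (adjusted p 0.0407; 3.44% of all genes) and 1, Ly6d, in DEIX against control (0.0487; 5.82%), and no other call among the 6 changed.

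Log2 changes changed sign in 48 of 659 alternatives for single genes, none of them Ly6d. Ly6a in TBI+DEIX against control became -0.0039 with a pseudocount of 0.1, -0.12 on the TPM scale and -0.031 after median-ratio scaling, and Ly6c2 in DEIX against control -0.10 on the TPM scale. Summed with Ly6c2, Ly6c1 became -0.0052 in TBI+DEIX against TBI, 0.050 in DEIX against control, -0.28 in TBI+DEIX against control and -0.056 for the interaction. With default and gene-by-gene weights, Ly6c1 became 0.25 and 0.15 in TBI against control, 0.14 and 0.086 in DEIX against control and -0.15 and -0.030 for the interaction, and with default weights -0.013 in TBI+DEIX against TBI. Ly6c2 became 0.48 and 0.51 in TBI+DEIX against TBI, 0.19 and 0.21 in TBI+DEIX against control and 0.44 and 0.45 for the interaction. Ly6e became 0.11 and 0.14 in TBI+DEIX against TBI, and Ly6g 0.58 and 0.58 there, 1.12 and 1.10 in TBI+DEIX against control and 0.23 and 0.23 for the interaction.

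Leaving out a library, Ly6a ran from -0.83 to 0.23 in DEIX against control and from -1.24 to 1.08 in TBI+DEIX against control. Ly6c1 ran from -0.11 to 0.072 in DEIX against control. Ly6c2 ran from -0.061 to 0.15 there, -0.42 to 0.59 in TBI+DEIX against TBI, -0.70 to 0.32 in TBI+DEIX against control and -0.47 to 0.54 for the interaction. Ly6e ran from -0.44 to 0.23 in TBI+DEIX against TBI and -0.12 to 0.55 for the interaction. Ly6g ran from -1.18 to 0.70 in TBI+DEIX against TBI, -0.74 to 1.15 in TBI+DEIX against control and -1.37 to 0.51 for the interaction. The causes of these changes were not tested. Ly6c1 was not tested at a mean FPKM of at least 5, and the interaction has no fit on fewer groups. Total counts are unknown, so no counting error could be given.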
